A study of Mus musculus with 6 samples.

Results

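The CD3 complex and the CD4 coreceptor were followed through the transcripts of 5 genes, Cd3e, Cd3d, Cd3g, Cd247 and Cd4, of 55536 genes in the deposited tables. They were chosen by name around Cd3e, which was selected on its fold change and call in this same comparison of HDAC1-cKO with WT cells, to see whether its lower level is shared by its partners. The difference between genotypes in these 5 genes is therefore given as a description, and where a count of them past the threshold of the fit over all genes is printed, it describes these libraries and supports nothing. All 5 passed the filter on low counts, which left 15519 genes.

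The libraries held CD4+ T cells of C57BL/6 mice that carried 2D2, a transgenic T cell receptor that recognises the MOG peptide of the myelin sheath. HDAC1-cKO cells were Hdac1 fl/fl and carried Cre recombinase under control of Cd4 sequences, and WT cells were Hdac1 fl/fl without Cre, with 3 libraries of each. Naive CD45.2+ cells were moved into CD45.1+ hosts, and these were given MOG peptide with complete Freund's adjuvant into the footpad 18 hours afterwards. The popliteal lymph nodes were taken 4 days later from 2 mice per library, and 500 cells positive for 2D2, CD4 and CD45.2 were sorted. The sources used here do not give the age or sex of the mice. Both groups share the floxed alleles, the transgenic receptor, the transfer and the immunisation. Cre is present in HDAC1-cKO cells only, so its presence and the loss of HDAC1 cannot be told apart. The sort gate required CD4 and the 2D2 receptor on the cell surface, and a T cell receptor reaches the surface only together with CD3. The libraries therefore describe cells that still carried both proteins at the surface.

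The T cell receptor binds peptide and MHC but cannot signal by itself. It is carried to the surface with CD3 epsilon paired with CD3 delta, CD3 epsilon paired with CD3 gamma, and a dimer of the zeta chain, which is the product of Cd247. The tails of these chains hold tyrosine motifs, called ITAMs, that the kinase Lck phosphorylates and that then bind the kinase ZAP-70. CD4 binds MHC class II on the presenting cell and brings Lck to the receptor. In mice Cd3e, Cd3d and Cd3g lie side by side, while Cd247 and Cd4 lie on other chromosomes.

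Cd3e (ENSMUSG00000032093), Cd3d (ENSMUSG00000032094) and Cd3g (ENSMUSG00000002033) occupied chr9:44998740-45009627, chr9:44981786-44987339 and chr9:44969572-44980431 of GRCm38, on the minus, plus and minus strand. Cd247 (ENSMUSG00000005763) occupied chr1:165788681-165877277 on the plus strand and Cd4 (ENSMUSG00000023274) chr6:124864692-124888221 on the minus strand. Cd3d and Cd3g are transcribed away from each other, with starts 1355 bases apart, and the start of Cd3e lay 27825 bases from that of Cd3d. Promoters are shown because the mean levels of the genes of this cluster were lower in HDAC1-cKO by different amounts. The mean of Cd247, elsewhere in the genome, was close to that in WT. The groups overlapped for Cd3d as well as for Cd247. The 250 bases before the RefSeq start (GRCm38.p6, 4 of 5 genes matched, all but Cd4) run 5′ to 3′ on the gene's own strand, with capitals on each E-box, the letters CANNTG bound by E proteins, which read the same on both strands.
Cd3e, chr9:45009612-45009861, minus strand: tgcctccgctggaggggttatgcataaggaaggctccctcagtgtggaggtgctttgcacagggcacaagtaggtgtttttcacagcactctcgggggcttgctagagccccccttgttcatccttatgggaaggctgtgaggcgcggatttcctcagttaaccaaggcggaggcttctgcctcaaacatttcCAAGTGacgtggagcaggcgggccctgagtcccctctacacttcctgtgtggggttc
Cd3d, chr9:44981536-44981785, plus strand: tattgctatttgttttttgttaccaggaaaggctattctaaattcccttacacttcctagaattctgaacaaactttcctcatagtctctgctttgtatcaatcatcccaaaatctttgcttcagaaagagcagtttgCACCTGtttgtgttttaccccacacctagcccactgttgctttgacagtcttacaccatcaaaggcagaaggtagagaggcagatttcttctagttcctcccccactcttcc
Cd3g, chr9:44980432-44980681, minus strand: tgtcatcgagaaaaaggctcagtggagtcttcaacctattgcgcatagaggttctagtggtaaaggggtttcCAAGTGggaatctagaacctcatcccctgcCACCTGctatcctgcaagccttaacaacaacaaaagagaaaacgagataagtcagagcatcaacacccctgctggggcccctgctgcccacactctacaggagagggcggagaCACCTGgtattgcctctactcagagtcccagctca
Cd247, chr1:165788431-165788680, plus strand: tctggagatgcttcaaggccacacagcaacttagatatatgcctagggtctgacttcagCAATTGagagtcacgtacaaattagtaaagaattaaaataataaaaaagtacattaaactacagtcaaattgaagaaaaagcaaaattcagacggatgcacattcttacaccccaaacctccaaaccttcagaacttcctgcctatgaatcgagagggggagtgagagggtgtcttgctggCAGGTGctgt
The E-box count was 1 in Cd3e, 1 in Cd3d, 3 in Cd3g and 2 in Cd247, and 66.2% of all 32851 windows of this length held at least 1. The ETS core GGAA, or TTCC for the other strand, occurred 5 times before Cd3e, 6 times before Cd3d, 2 times before Cd3g and 1 time before Cd247, with a match in 93.4% of all windows. The GATA letters AGATAA or TTATCT occurred before Cd3g only, against 9.99% of all windows, and neither the RUNX letters TGTGGT or ACCACA nor TATAAA or TTTATA occurred before any of the 4. CpG occurred 7 times before Cd3e, 0 times before Cd3d, 4 times before Cd3g and 3 times before Cd247, with a median of 6 over all windows. An ETS core overlapped an E-box at 1 place before Cd3e and 1 before Cd3g, and no other motifs overlapped in these windows. A match describes the letters, not binding.

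The total count was 19956153 to 36307610 in the HDAC1-cKO libraries and 39036751 to 55900237 in the WT libraries. Hdac1 stood at 7.07 to 8.35 FPKM (fragments per kilobase of gene, scaled for depth, as deposited) in HDAC1-cKO and at 113 to 119 FPKM in WT, as the labels require. HDAC1-cKO replicate 2 stood apart. Across 6357 genes, how far each gene lay from its mean over the libraries had a Pearson r of 0.634 with GC content there, against -0.319 to -0.079 in the other 5 libraries. The genes described here had 44.4% (Cd247) to 52.0% GC (Cd4) in their longest coding transcript, against quartiles of 44.9% and 54.2% over all genes tested. The values of the 5 genes, and the counts and medians of the gene lists, are also given without this library. Its removal changes the filter, so 16147 genes were then tested, with a median log2 fold change of -0.01. At an adjusted p under 0.05, 258 of them were called higher and 368 lower.

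Transcripts of the epsilon chain stood far lower in HDAC1-cKO cells, and those of the gamma and delta chains stood lower by less. Mean transcript levels of the zeta chain and CD4 were close to those in WT. Mean FPKM in HDAC1-cKO was 37.1% of WT for Cd3e, 63.8% for Cd3g, 75.3% for Cd3d, 104% for Cd247 and 107% for Cd4. The 3 HDAC1-cKO libraries lay below the 3 WT libraries for Cd3e and Cd3g, and the groups overlapped for Cd3d, Cd247 and Cd4. That makes 2 of 5 below WT and 0 of 5 above it. Among all 15519 genes, 11.8% had all HDAC1-cKO libraries below all WT libraries and 12.7% had them above. Past the threshold of an adjusted p under 0.05 (edgeR quasi-likelihood test, adjusted over all genes by Benjamini-Hochberg) were 1 of 5 on the lower side, Cd3e, and 0 of 5 on the higher side, where the shares over all genes were 0.992% and 0.979%. Since Cd3e was chosen in this contrast, nothing is read from these counts. In libraries of sorted cells, fewer cells that use a gene and less RNA per cell cannot be told apart.

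Cd3e encodes CD3 epsilon, which is part of both CD3 pairs. It stood at 28.1, 34.3 and 25.8 FPKM in HDAC1-cKO replicates 1, 2 and 3, against 71.0, 74.7 and 92.1 FPKM in WT replicates 1, 2 and 3. The highest HDAC1-cKO library was below the lowest WT library and the group means were 29.4 ± 4.38 and 79.3 ± 11.3 FPKM (SD, n = 3 each). These values rest on 780 to 1906 reads per HDAC1-cKO library and 5148 to 6072 per WT library. The log2 fold change of HDAC1-cKO over WT was -1.42 ± 0.16 (SE), the 309th lowest of 15519, and -1.56 without HDAC1-cKO replicate 2. Leaving out 1 library moved it between -1.56 and -1.31, but the number of genes of this complex past the threshold fell to 0 when WT replicate 3, HDAC1-cKO replicate 1 or HDAC1-cKO replicate 3 was left out by itself.

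Cd3g encodes CD3 gamma, a partner of epsilon whose tail also carries a signal for internalisation of the receptor. It stood at 312, 412 and 308 FPKM in HDAC1-cKO replicates 1, 2 and 3, against 493, 568 and 556 FPKM in the WT replicates. Its groups did not overlap, but HDAC1-cKO replicate 2 was closer to the WT libraries than the other two. The log2 fold change was -0.64 ± 0.14 (SE), and -0.80 without HDAC1-cKO replicate 2. With HDAC1-cKO replicate 2 left out, 3 of the 5 genes, Cd3e, Cd3g and Cd3d, were past the threshold, as a description.

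Cd3d encodes CD3 delta, the other partner of epsilon. It stood at 224, 403 and 251 FPKM in the HDAC1-cKO replicates, against 340.7, 410.3 and 416 FPKM in the WT replicates. HDAC1-cKO replicates 1 and 3 lay below all WT libraries and HDAC1-cKO replicate 2 lay among them. The log2 fold change was -0.40 ± 0.22 (SE), -0.72 without HDAC1-cKO replicate 2 and, leaving out HDAC1-cKO replicate 1 instead, -0.25.

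Cd247 encodes the zeta chain, which carries more ITAMs than any other chain of the complex. It stood at 81.7, 124 and 79.5 FPKM in the HDAC1-cKO replicates, against 82.3, 95.0 and 97.5 FPKM in the WT replicates. HDAC1-cKO replicate 2 was the highest of all libraries and the other two HDAC1-cKO libraries were the lowest, so the groups overlapped. The log2 fold change was 0.06 ± 0.18 (SE) and turned to -0.19 without HDAC1-cKO replicate 2. It also was -0.02 without WT replicate 1. The coding transcripts of Cd247 share 64.0% of their exon bases with those of Pou2f1 on the other strand, and the library kit does not mark strand. How reads over these bases were counted is not given in the sources used here. Cd247 counts can therefore hold Pou2f1 reads or lack reads of their own. Pou2f1, a transcription factor gene, averaged 1.05 ± 0.185 FPKM in HDAC1-cKO and 1.26 ± 0.0217 FPKM in WT (SD, n = 3 each). The coding transcripts of the other 4 genes share no exon base with coding transcripts of another gene. Over all its transcripts, Cd3e shares 135 exon bases, or 3.31%, with the antisense gene Gm48719. That gene reached at most 0.1999 CPM in any library.

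Cd4 stood at 43.8, 75.5 and 47.7 FPKM in the HDAC1-cKO replicates, against 46.1, 52.4 and 58.2 FPKM in the WT replicates. Again HDAC1-cKO replicate 2 was the highest of all and the groups overlapped. The log2 fold change was 0.10 ± 0.21 (SE), and -0.20 without HDAC1-cKO replicate 2. The Cre transgene of the HDAC1-cKO cells uses Cd4 regulatory sequences, and whether it adds reads to the Cd4 count is not given in the sources used here.

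**Figure D1:**
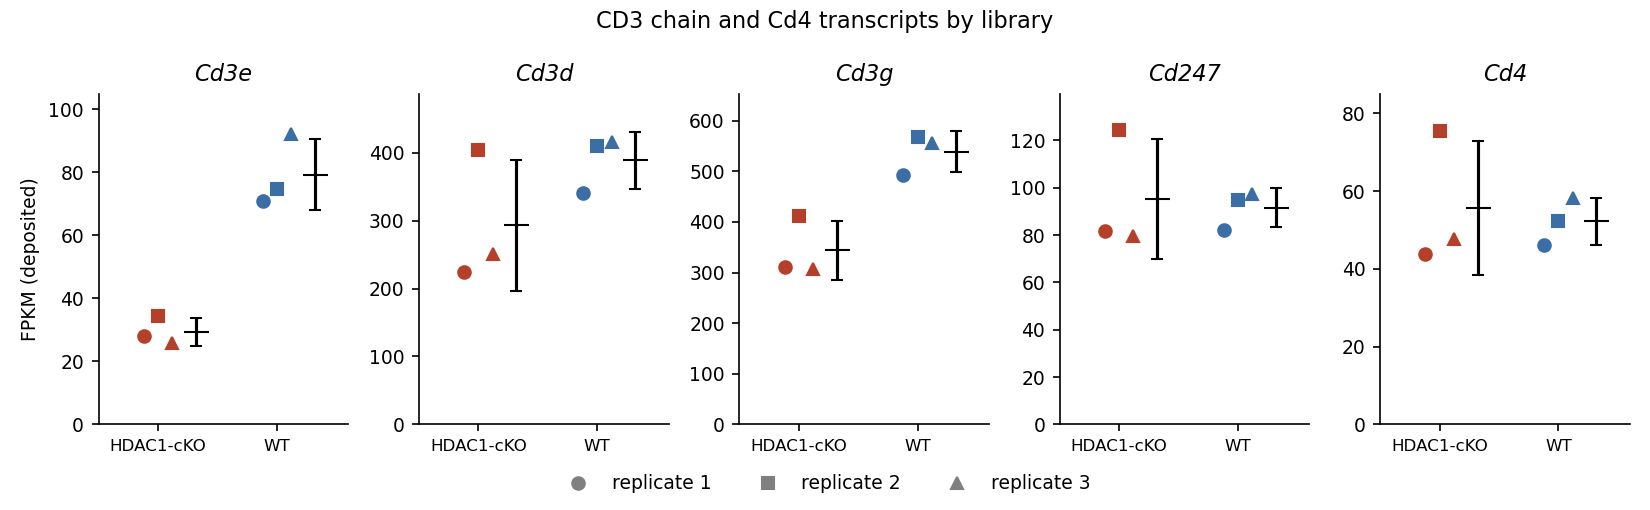
Deposited FPKM of each gene in each library, HDAC1-cKO left and WT right, with 1 marker shape per replicate number and the group mean ± SD (n = 3) as a black bar beside the points. The Cd3e and Cd3g groups do not overlap, and HDAC1-cKO replicate 2 (square) is the highest HDAC1-cKO library in all 5 panels.

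Within a genotype, the genes tended to be high or low in the same libraries. On the log2 CPM scale (counts relative to the scaled library total), HDAC1-cKO replicate 2 lay above its genotype mean in each of them, by 0.24 for Cd3e, 0.28 for Cd3g, 0.42 for Cd247, 0.49 for Cd4 and 0.51 for Cd3d. HDAC1-cKO replicates 1 and 3 and WT replicate 1 lay below their genotype mean in all 5 genes. WT replicate 3 lay above it in all 5, by 0.04 for Cd3g to 0.22 for Cd3e. In WT replicate 2, Cd3e lay below its mean and the other 4 genes above. With offsets that remove the GC trend of each library, the log2 fold changes were -1.45 for Cd3e, -0.59 for Cd3g, -0.42 for Cd3d, 0.21 for Cd247 and 0.05 for Cd4.

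**Figure D2:**
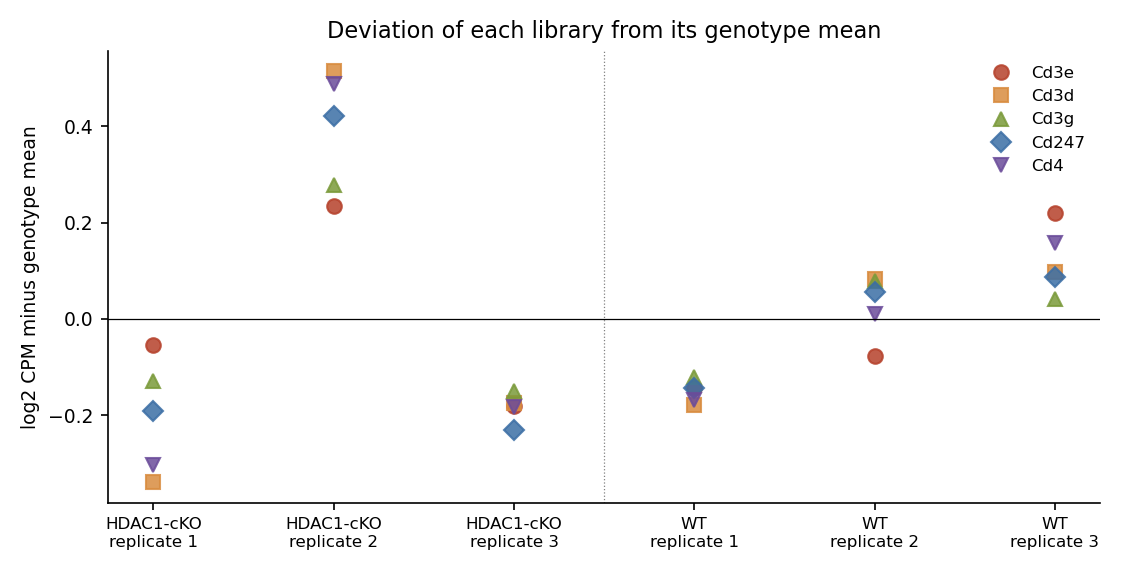
Log2 CPM of each gene minus the mean of its genotype, for the 3 HDAC1-cKO libraries on the left and the 3 WT libraries on the right. All 5 genes are above 0 in HDAC1-cKO replicate 2 and WT replicate 3 and below 0 in HDAC1-cKO replicates 1 and 3 and WT replicate 1.

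The genes were also compared inside each library. The ratio of Cd3e to Cd4 FPKM was 0.642, 0.454 and 0.541 in HDAC1-cKO replicates 1, 2 and 3, against 1.54, 1.43 and 1.58 in the WT replicates. That of Cd3g to Cd4 was 7.11, 5.45 and 6.45 in HDAC1-cKO, against 10.7, 10.8 and 9.56 in WT. That of Cd3d to Cd4 was 5.11, 5.34 and 5.27 in HDAC1-cKO, against 7.40, 7.83 and 7.15 in WT. Relative to Cd4, the 3 genes of the chromosome 9 cluster thus lay lower in every HDAC1-cKO library than in every WT library, including Cd3d, whose own levels overlapped. Mean ratios in HDAC1-cKO were 36.0% of WT for Cd3e, 61.2% for Cd3g and 70.2% for Cd3d, and 39.0%, 65.4% and 69.6% without HDAC1-cKO replicate 2. The ratio of Cd247 to Cd4 was 1.86, 1.65 and 1.67 in HDAC1-cKO, against 1.79, 1.81 and 1.68 in WT, so these groups overlapped and the mean ratio was 98.1% of WT. These ratios come from the same libraries and the same contrast that chose Cd3e, and carry no test. Reads of the Cre transgene in the Cd4 count would lower them in HDAC1-cKO only, and whether there are any was not tested.

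**Figure D3:**
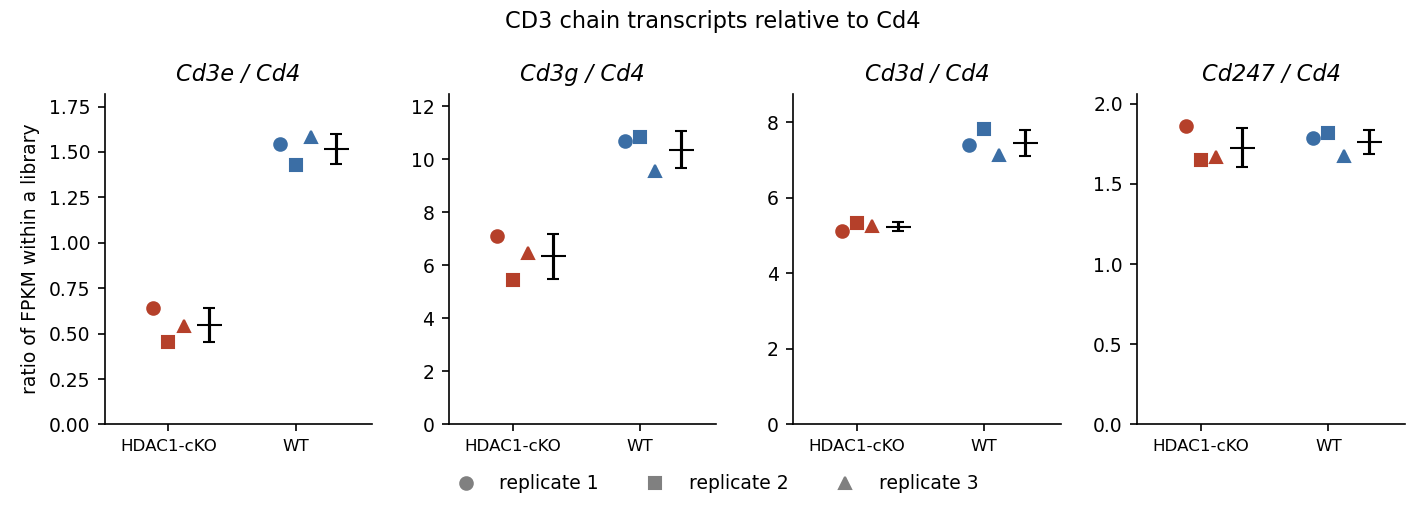
FPKM of Cd3e, Cd3g, Cd3d and Cd247 divided by that of Cd4 in the same library, HDAC1-cKO left and WT right, with the group mean ± SD (n = 3) as a black bar. The groups are apart for Cd3e, Cd3g and Cd3d and overlap for Cd247.

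The same FPKM can be read as shares of the CD3 transcripts. Cd3e made up 4.36, 3.52 and 3.89% of the summed FPKM of the 4 CD3 chains in the HDAC1-cKO replicates, against 7.20, 6.50 and 7.93% in the WT replicates. Cd247 made up 12.5 ± 0.430% in HDAC1-cKO, against 8.34 ± 0.0583% in WT (SD, n = 3 each). Neither pair of groups overlapped. The level of Cd247 itself overlapped between the groups, so its larger share in HDAC1-cKO goes with the smaller sum and is no separate difference. The shares of Cd3d and Cd3g overlapped, with means of 38.0 ± 3.36% and 45.6 ± 3.06% in HDAC1-cKO against 35.4 ± 0.717% and 49.1 ± 1.08% in WT (SD, n = 3 each). The sum of the 4 chains was 646, 974 and 664 FPKM in HDAC1-cKO, against 987, 1148 and 1162 FPKM in WT. Its HDAC1-cKO mean was 69.3% of WT, and 59.6% without HDAC1-cKO replicate 2.

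Per length, the order of levels in HDAC1-cKO was Cd3g, Cd3d, Cd247, Cd4 and Cd3e, with means of 344, 293, 95.2, 55.7 and 29.4 FPKM. The order in WT was Cd3g, Cd3d, Cd247, Cd3e and Cd4, with means of 539, 389, 91.6, 79.3 and 52.2 FPKM. Cd3e was thus below Cd4 in all 3 HDAC1-cKO libraries and above it in all 3 WT libraries. Across libraries, the values of neighbours in this order overlapped for Cd3g and Cd3d in HDAC1-cKO and for Cd247 and Cd3e in WT. Inside each library the order of these pairs held. The ratio of Cd3d to Cd3g was 0.692 to 0.979 over all libraries. That of Cd3e to Cd247 was 0.786 to 0.945 in WT. Cd3e ranked 2835 to 3460 by FPKM among all genes in HDAC1-cKO libraries and 1274 to 1621 in WT libraries. The place of Cd247 depends on the length used: the deposited FPKM divide its count by 4558 bases, the exons of all its coding transcripts merged, and division by its longest or shortest coding transcript would give 1.54 or 3.46 times the level. The lengths behind the other FPKM were 1462 bases for Cd3e, 1617 for Cd3d, 1023 for Cd3g and 3108 for Cd4, each the longest coding transcript of its gene.

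The genes around the CD3 cluster were compared with it. Of 10 tested genes within 250 kb of Cd3e, Cd3d or Cd3g, 0 were past the threshold (edgeR, with 1 at an unadjusted p under 0.05, 1 called by DESeq2 and 1 by limma-voom), against 1.97% of all genes called in either direction. Their median log2 fold change was -0.10, against -0.002 over all genes, and without HDAC1-cKO replicate 2 it was -0.003 over 11 genes tested, again with 0 called. Mpzl3, which encodes a membrane protein and lies 45559 bases from Cd3e, stood at 10.6 ± 1.96 CPM in HDAC1-cKO against 21.4 ± 3.10 CPM in WT (SD, n = 3 each), with all HDAC1-cKO libraries below all WT libraries. Its log2 fold change was -1.01 ± 0.20 (SE; by edgeR, adjusted p = 0.0506). Of the other genes within 100 kb, Ube4a, 3972 bases from Cd3g, had a log2 fold change of -0.19 ± 0.13, Atp5l of 0.00 ± 0.10, Kmt2a of -0.45 ± 0.22 and Jaml of 0.08 ± 0.54 (SE; by edgeR, adjusted p = 0.543, 0.987, 0.365 and 0.963). Gm48720, which overlaps the span of Cd3e on the same strand but none of its exons, reached at most 0.963 CPM in any library.

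**Figure D4:**
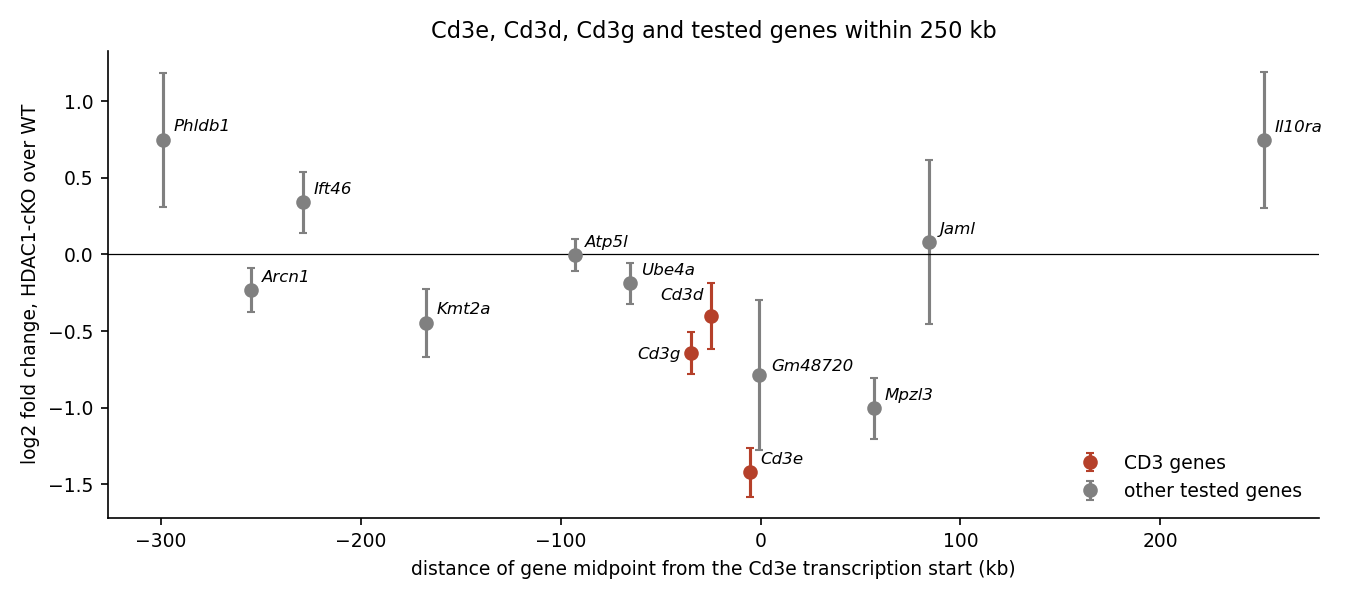
Log2 fold change of HDAC1-cKO over WT (± SE) of Cd3e, Cd3d and Cd3g (red) and of the 10 other tested genes within 250 kb (grey), by distance of the gene's midpoint from the start of Cd3e in kb along the plus strand. Cd3e is the lowest point, Mpzl3 the next, and Atp5l and Jaml sit near 0.

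Around Cd247, 0 of 7 tested genes within 250 kb were past the threshold (edgeR, with 4 at an unadjusted p under 0.05 and 2 called by DESeq2 and 2 by limma-voom). Creg1, a secreted glycoprotein gene, had a log2 fold change of 0.57 ± 0.14 and Rcsd1 of -0.37 ± 0.12 (SE; by edgeR, adjusted p = 0.0754 and 0.165). Mpzl1, a membrane glycoprotein gene 154143 bases from Cd247 and named after its values were seen, had the lowest p of the 7. It stood at 6.03 ± 1.89 CPM in HDAC1-cKO against 1.30 ± 0.815 CPM in WT (SD, n = 3 each), a log2 fold change of 2.22 ± 0.50 (SE; by edgeR, adjusted p = 0.0660), and was called higher without HDAC1-cKO replicate 2. The low-count transcripts Gm16565, Gm37469 and Gm37856, which overlap the span of Cd247, had 0.59 ± 0.39, 0.64 ± 0.53 and 2.02 ± 0.78 (SE; by edgeR, adjusted p = 0.512, 0.609 and 0.238). Around Cd4, 1 of 25 tested genes was past it. Mlf2 rose to 404 ± 26.4 CPM in HDAC1-cKO, against 275 ± 8.26 CPM in WT (SD, n = 3 each; 0.55 ± 0.10 as log2 fold change and its SE, adjusted p = 0.0336 by edgeR), and this call ended on leaving out any of the 5 libraries besides HDAC1-cKO replicate 2 (by edgeR, adjusted p = 0.0833 to 0.167). Lag3, a relative of Cd4 that also binds MHC class II and lies 16140 bases away, stood at 68.5 ± 5.81 CPM in HDAC1-cKO, with 68.5 ± 9.13 CPM in WT (SD, n = 3 each; by edgeR, adjusted p = 1). The other 8 within 100 kb of Cd4, Ptms, Cdca3, Usp5, Tpi1, Spsb2, Cops7a, Eno2 and the pseudogene Gm32536, had positive log2 fold changes from 0.19 to 2.26, and none passed (by edgeR, adjusted p = 0.179 to 0.850). Among all genes, 50.3% had a log2 fold change below 0. The highest of the 8, that of Eno2, had an SE of 1.49, with 0 CPM in WT replicates 2 and 3.

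Next come the constant genes of the T cell receptor itself, which both groups carry beside the transgenic receptor. How far transcripts of the transgenic receptor add to these counts was not tested. Of 7 tested, 0 were called (edgeR, with 1 at an unadjusted p under 0.05, 1 called by DESeq2 and 2 by limma-voom), with a median log2 fold change of -0.08. Leaving out HDAC1-cKO replicate 2, the median was -0.19 over 8 genes tested, again with 0 called. Trac, the constant part of the alpha chain, stood at 3366 ± 71.8 CPM in HDAC1-cKO, with 3939 ± 454 CPM in WT (SD, n = 3 each), a log2 fold change of -0.23 ± 0.11 (SE; by edgeR, adjusted p = 0.339). Trbc2, of the beta chain, stood at 17570, 24840 and 18440 CPM in HDAC1-cKO replicates 1, 2 and 3, with 20660 to 24770 CPM in WT (-0.19 ± 0.15 as log2 fold change and its SE, adjusted p = 0.584 by edgeR); it is nearly identical to Trbc1, so the split of reads between them is uncertain. HDAC1-cKO replicates 1 and 3 lay below all WT libraries for Trbc2, and the overlap of the groups rests on HDAC1-cKO replicate 2. Tcrg-C1, of a gamma chain, had a log2 fold change of 0.91 ± 0.31 at 18.7 CPM in HDAC1-cKO, with 9.96 CPM in WT (by edgeR, adjusted p = 0.181).

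Among genes that act on or downstream of the ITAMs, 3 of 17 tested fell (adjusted p under 0.05 by edgeR), where 0.992% of all genes were called lower. Of the 17, 15 had a log2 fold change below 0, against 50.3% of all genes, and the median was -0.30, or -0.49 without HDAC1-cKO replicate 2. Ptpn22, a phosphatase that removes the ITAM and Lck activating phosphates, fell to 167 ± 16.1 CPM in HDAC1-cKO, against 265 ± 15.9 CPM in WT (SD, n = 3 each; -0.66 ± 0.11 as log2 fold change and its SE, adjusted p = 0.0324 by edgeR). Pag1, which anchors the inhibitory kinase Csk at the membrane, fell to 12.4 ± 2.44 CPM, against 29.7 ± 6.13 CPM in WT (-1.27 ± 0.22 as log2 fold change and its SE, adjusted p = 0.0334 by edgeR). Lcp2, the adaptor SLP-76 downstream of ZAP-70, fell to 376 ± 50.5 CPM, against 586 ± 39.2 CPM in WT (-0.64 ± 0.12 as log2 fold change and its SE, adjusted p = 0.0444 by edgeR). Of these 3, Ptpn22 and Pag1 are known to restrain signalling and Lcp2 to carry it forward. Lck and Zap70 themselves had log2 fold changes of -0.20 ± 0.12 and -0.20 ± 0.15 (SE; by edgeR, adjusted p = 0.460 and 0.566) and were chosen for naming for their role. Without HDAC1-cKO replicate 2, 8 genes were lower, among them Lck and Zap70, and without any 1 other library 0 were. The Lcp2 call also ended when offsets removed the GC trend of each library, with a log2 fold change of -0.58 (by edgeR, adjusted p = 0.0663).

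Of 12 tested genes of CD3 assembly and turnover, 2 fell, where 0.992% of all genes were called lower. Of the 12, 8 had a log2 fold change below 0, against 50.3% of all genes, and the median was -0.26, or -0.44 without HDAC1-cKO replicate 2. Trat1, an adaptor that associates with the receptor complex, stood at 6.81, 14.9 and 7.64 CPM in HDAC1-cKO replicates 1, 2 and 3, against 28.0, 49.7 and 38.8 CPM in the WT replicates (-1.98 ± 0.34 as log2 fold change and its SE, adjusted p = 0.0334 by edgeR). The groups did not overlap, and the call ended with offsets for the GC trend, where the log2 fold change was -1.58 (by edgeR, adjusted p = 0.108). Sla, the adaptor SLAP, which with the ubiquitin ligase Cbl directs CD3 chains to degradation, stood at 177, 176 and 159 CPM in HDAC1-cKO, against 244, 272 and 300.4 CPM in WT (-0.68 ± 0.11 as log2 fold change and its SE, adjusted p = 0.0324 by edgeR). Canx and Calr, chaperones of receptor assembly, had 0.08 ± 0.15 and -0.06 ± 0.10 (SE; by edgeR, adjusted p = 0.865 and 0.837), and were chosen for naming for their role. Without HDAC1-cKO replicate 2, 4 genes of this list fell, and without any 1 other library 0 did.

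Among 12 tested transcription factors of T cell receptor and CD3 genes, 1 fell, where 0.992% of all genes were called lower. Of the 12, 11 had a log2 fold change below 0, against 50.3% of all genes, and the median was -0.42, or -0.39 with 2 called lower when HDAC1-cKO replicate 2 was left out. Lef1, an HMG box factor of the T cell lineage, fell to 87.7 ± 0.994 CPM in HDAC1-cKO, against 136 ± 11.8 CPM in WT (SD, n = 3 each; -0.63 ± 0.11 as log2 fold change and its SE, adjusted p = 0.0332 by edgeR). Gata3, which also promotes the CD4 lineage, had a log2 fold change of -0.62 ± 0.16 (SE; by edgeR, adjusted p = 0.0869) and was called lower without HDAC1-cKO replicate 2. Tal1 was at 0 in all libraries. Of 12 genes of the CD4 and CD8 coreceptors and their regulators, 0 were called (edgeR, with 4 at an unadjusted p under 0.05, 4 called by DESeq2 and 3 by limma-voom), with a median log2 fold change of -0.02. Leaving out HDAC1-cKO replicate 2, the median was -0.11 and 1, Gata3, was called lower. In that list Runx1 had a log2 fold change of -0.50 ± 0.13 (SE; by edgeR, adjusted p = 0.10). Of 6 other T cell surface genes, 1 fell, where 0.992% of all genes were called lower. Of the 6, 5 had a log2 fold change below 0, against 50.3% of all genes, with a median of -0.24. Leaving out HDAC1-cKO replicate 2, the median was -0.48 and 3 were called lower, where 368 of all 16147 genes were. The gene called with all libraries was Cd2, an adhesion and costimulatory receptor. It fell to 559 ± 55.4 CPM, against 878 ± 43.5 CPM in WT (-0.65 ± 0.11 as log2 fold change and its SE, adjusted p = 0.0310 by edgeR). Cd28 stood at 193 ± 49.5 CPM in HDAC1-cKO, with 308 ± 55.4 CPM in WT (by edgeR, adjusted p = 0.144). The calls of Ptpn22, Pag1, Lcp2, Trat1, Sla, Lef1 and Cd2 each ended on leaving out any of the 5 libraries besides HDAC1-cKO replicate 2 (by edgeR, adjusted p = 0.0561 to 0.167).

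**Figure D5:**
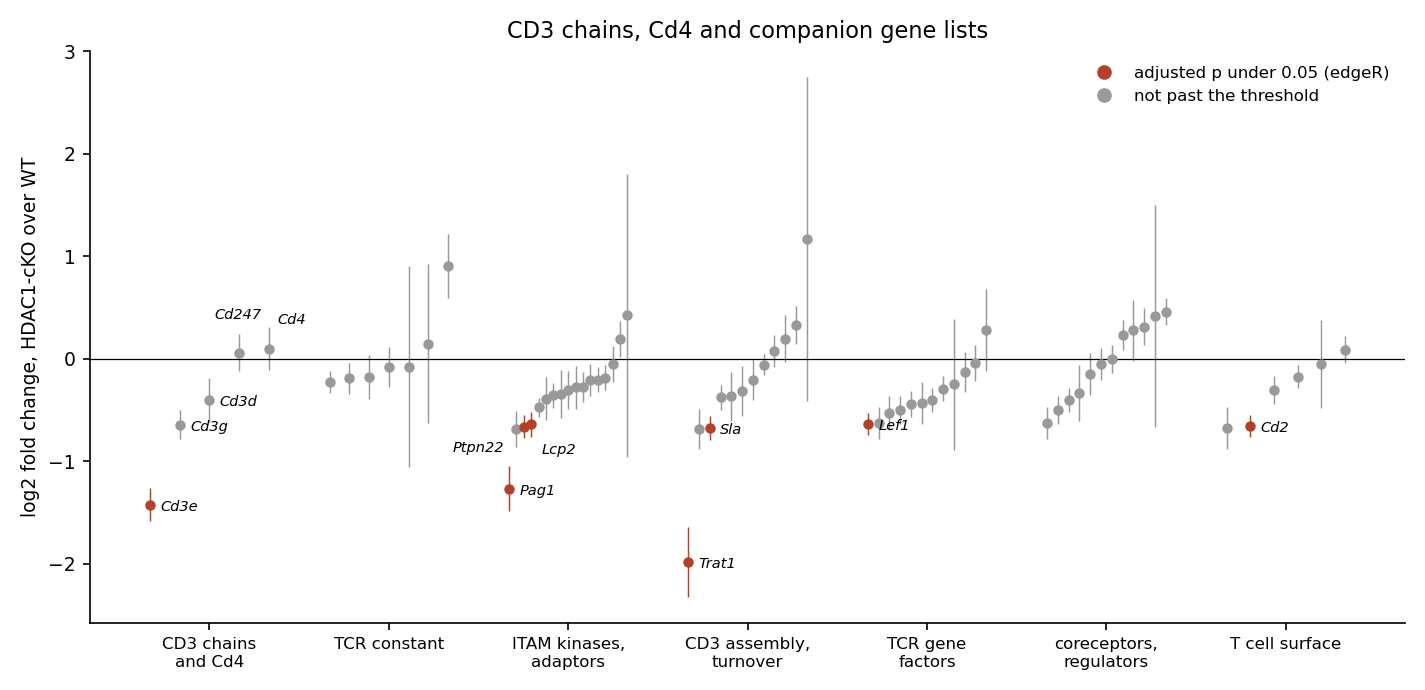
Log2 fold change of HDAC1-cKO over WT (± SE) for the CD3 chains and Cd4 and for the tested genes of 6 companion lists, sorted within each list, with genes past the edgeR threshold in red. Most points of the ITAM and transcription factor lists lie below 0, with 3 and 1 past the threshold.

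Other chains that carry ITAMs are typical of other cell types. Fcer1g, which can stand in for the zeta chain, stood at 0.562 to 1.66 CPM in HDAC1-cKO, with 0.566 to 1.95 CPM in WT (by edgeR, adjusted p = 0.882), and Tyrobp at no more than 0.490 CPM in HDAC1-cKO, with 1.21 CPM in WT (by edgeR, adjusted p = 0.346). Cd79b, a chain of the B cell receptor, stood at 21.1 ± 4.15 CPM in HDAC1-cKO, with 10.5 ± 1.87 CPM in WT (SD, n = 3 each; 1.00 ± 0.21 as log2 fold change and its SE, adjusted p = 0.0592 by edgeR). Of the 4 tested, 0 were called (edgeR, with 1 at an unadjusted p under 0.05, 1 called by DESeq2 and 1 by limma-voom), with a median log2 fold change of 0.07. Leaving out HDAC1-cKO replicate 2, it was -0.10, again with 0 called.

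Markers of cells that the sort could have let through were compared as whole lists. The summed level of 8 B cell markers was 153 to 326 CPM in HDAC1-cKO, with 74.5 to 190.0 CPM in WT. That of 9 myeloid and dendritic cell markers was 11.3 to 14.4 CPM in HDAC1-cKO, with 18.1 to 37.9 CPM in WT, with Csf1r and Flt3 at 0 in all libraries, and that of 5 NK cell markers 1.13 to 2.70 CPM in HDAC1-cKO, with 3.52 to 3.57 CPM in WT, with Ncr1 and Klra8 at 0. For these last 2 lists the groups did not overlap. Among all genes tested, 11.8% had all HDAC1-cKO libraries below all WT libraries and 12.7% above. In WT, Xcr1 (9.64 to 11.3 CPM) and Lyz2 (2.03 to 22.6 CPM) made up most of the myeloid and dendritic cell sum. Klrb1c (2.28 to 3.38 CPM in WT) made up most of the NK cell sum. Without HDAC1-cKO replicate 2, Xcr1 and Klrb1c were called lower, where 368 of all 16147 genes were. Of the 6 myeloid and dendritic cell genes tested, 5 had a log2 fold change below 0, against 50.3% of all genes. Among these was Lyz2, whose groups overlapped (-2.24 ± 0.81, SE; by edgeR, adjusted p = 0.206). Cd68 went the other way, with every HDAC1-cKO library above every WT library (1.14 ± 0.36, SE; by edgeR, adjusted p = 0.153). For 5 gamma delta T cell markers the summed level was 59.0 to 96.2 CPM in HDAC1-cKO, with 48.9 to 112.8 CPM in WT. For 6 stroma and endothelium markers it was 58.2 to 81.5 CPM in HDAC1-cKO, with 64.2 to 99.3 CPM in WT. Of these, Pdpn was at 0, and Col1a1 and Col3a1 reached at most 0.764 and 0.195 CPM. Most of this sum thus came from the other listed markers. The summed level of the 2 CD8 markers was 65.7 to 72.3 CPM in HDAC1-cKO, above the 45.4 to 59.4 CPM in WT. Of them, Cd8a stood at 0.936 to 2.54 CPM in HDAC1-cKO, with 0.0182 to 2.37 CPM in WT (by edgeR, adjusted p = 0.897), and Cd8b1 at 67.6 ± 3.42 CPM in HDAC1-cKO, with 49.1 ± 6.82 CPM in WT (SD, n = 3 each; 0.46 ± 0.14 as log2 fold change and its SE, adjusted p = 0.127 by edgeR). In these 6 lists 0 genes were called (edgeR), with 2, 3, 0, 1, 1 and 0 genes of the B, myeloid, NK, CD8, gamma delta and stroma lists at an unadjusted p under 0.05, 1, 1, 0, 1, 1 and 0 called by DESeq2 and 1, 1, 1, 0, 0 and 0 by limma-voom. The part of other cells in the levels of the CD3 genes was not tested.

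With all 6 libraries, the genes whose pattern was most like that of Cd3e were not its partners. Over the 6 libraries, among 5807 genes with a mean of at least 20 CPM, Cd3g came 63rd by Pearson correlation of log2 CPM with Cd3e (r = 0.959), Cd3d 739th (r = 0.749), Cd247 2655th (r = 0.120) and Cd4 2771st (r = 0.079). The 5 most alike were Frmd4b, Tmem154, Ptger4, Itgb2 and Tmem229b (r = 0.998, 0.996, 0.995, 0.992 and 0.991). All of them lay lower in each HDAC1-cKO library than in each WT library, with log2 fold changes of -0.56, -0.55, -0.66, -0.44 and -1.23, so the correlation rests on the genotype difference that chose Cd3e and is a description. All 5 were again the most alike on log2(FPKM + 1), and 1 of them without HDAC1-cKO replicate 2. The ranks of Cd3g, Cd3d, Cd247 and Cd4 without that library are not given here.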

How the data were processed

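Per the labels' protocols, RNA of the sorted cells was amplified by Smart-seq2, made into libraries with Nextera XT, which does not mark strand, and sequenced as 50-base single reads. The authors deposited raw counts per gene and FPKM. Per the submitters' processing notes, the tools were STAR 2.5.2b, Picard 2.19.2, R 3.6.1 and DESeq2 1.24.0, with GRCm38 among the builds named; the sources used here name no counter, strand setting or rule for multimapping reads. The deposited FPKM equal the count divided by DESeq2's size factor and 1 fixed length per gene. A total of 0 value columns lacked a sample.

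Counts were filtered with filterByExpr, scaled by TMM and tested over all 15519 genes with edgeR 4.0.16 (quasi-likelihood, robust, two-sided, R 4.3.3). Standard errors come from the fold change and its F statistic. CPM use TMM-scaled totals. Log2 CPM use a prior count of 2. DESeq2 1.42.0 and limma 3.58.1 gave alternatives; the code was checked on simulated counts. GC content, exon overlap and coding transcript lengths come from GENCODE M21, whose coordinates equal the deposited ones. Figures used matplotlib 3.10.9.

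The members and gene lists were chosen with earlier results of these data known. Some genes are in several lists, so the counts of the lists are not separate. Gata3, Runx1 and Ikzf1 are in both the coreceptor and the transcription factor list. Ptpn6 of the ITAM list and Lag3 of the coreceptor list are also neighbours of Cd4. Named in each list were up to 4 called genes by lowest p or, with fewer than 2 called, the 2 of lowest p, plus Trac, Trbc2, Fcer1g, Cd8a and Cd8b1, tested neighbours within 100 kb and the 5 genes most like Cd3e, leaving out predicted symbols. Lck, Zap70, Canx, Calr and Mpzl1 were added afterwards. Reads carry no molecular identifiers, so counts are not independent molecules. Each library pooled 2 mice; every pair of libraries differed by more than counting error.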

Additional observations from a re-analysis of the deposited data

How the results depend on the processing

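Over all 18 alternatives the log2 fold change stayed between -1.57 and -1.31 for Cd3e, -0.80 and -0.57 for Cd3g and -0.72 and -0.25 for Cd3d, and it took either sign for Cd247 (-0.19 to 0.21) and Cd4 (-0.20 to 0.24); none moved by more than the SD within groups. Counts of the 5 genes past the threshold below are descriptions, since Cd3e was chosen in this contrast. The cause of the following moves was not tested. With DESeq2, 698 genes were higher and 665 lower in HDAC1-cKO, 2 of the 5 genes were called lower, and 1 TCR constant, 5 ITAM, 1 other ITAM-bearing, 4 coreceptor, 6 transcription factor, 2 surface and 5 neighbouring genes were called. With limma-voom and sample weights the numbers were 770 and 819, 3 of the 5, and 2, 7, 1, 3, 5, 3 and 7 in the same order, with 6 assembly and turnover genes. With GC offsets 275 genes were higher and 264 lower, and 1 other ITAM-bearing, 2 surface and 3 neighbouring genes were called; with GC and length offsets 276 were higher. With no filter 243 were lower, 2 of the 5 genes, 1 other ITAM-bearing gene and 3 neighbours were called, and 2, 1 and 2 with the 10 CPM filter. On log2(FPKM + 1) and log2(FPKM + 0.1) these were 2, 1 and 3 each, and with counts thinned to the smallest total 2 of the 5 genes and 2 neighbours. Leaving out 1 library each, genes higher ran from 15 to 258 and lower from 10 to 368, members called lower from 0 to 3, ITAM genes from 0 to 8, assembly and turnover genes from 0 to 4, coreceptor genes from 0 to 1, transcription factors from 0 to 2, surface genes from 0 to 3 and neighbours from 0 to 2, the highest in each case without HDAC1-cKO replicate 2; of the 5 genes most like Cd3e, 1 was again among them without that library.

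Deviations of same-numbered libraries had a Pearson r of 0.207, 0.000 and -0.154 over 6359 genes, and not every library correlated best with its own number. As deviations from means of 3 libraries, these values cannot decide whether the replicate numbers pair the samples. With the replicate block 34 genes were higher and 31 lower, and 0 ITAM, 1 assembly and turnover, 0 transcription factor, 0 surface and 0 neighbouring genes were called. With the replicate block and GC offsets together 1 TCR constant gene and 2 neighbours were called. Depth limits the low genes: Fcer1g, Tyrobp and Cd8a rest on few reads per library.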
